A study of Oryctolagus cuniculus with 15 samples.

Results

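The genes described here are 6 growth factor genes, FGF1, FGF10, PDGFB, PDGFC, HGF and CSF1, and 4 receptor genes, FGFR1, PDGFRA, PDGFRB and MET. They were chosen by gene symbol, and all 10 were found among the 23428 genes of the deposited tables, of which 15408 have a symbol. Their levels were measured by bulk RNA-seq in primary rabbit corneal keratocytes, the resident cells of the corneal stroma, with 3 libraries in each of 5 culture conditions. All cells were at first passage, were kept in the same serum-free medium and gave RNA on day 6. In 2DC the cells grew on dishes coated with type I collagen and were incubated in digestion media, which held collagenase and hyaluronidase, before lysis. In 2DC_L the same kind of dish was lysed without that incubation. In 2DF the cells lay on the surface of a polymerized fibrillar collagen matrix. In 3DF they were embedded in such a matrix at 100k cells/matrix, and in 3DF_50 at 50k cells/matrix. Cells of the 3 matrix conditions were released with digestion media and pelleted before lysis. Each library pooled several dishes or matrices, and the replicates of a condition were separate experiments, so that errors refer to experiments with pooled cells. The cell density also differed between the 2D and 3D conditions.

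The growth factors studied here are secreted proteins that bind receptor tyrosine kinases in the cell membrane. Ligand binding pairs the receptors, which phosphorylate each other and signal through adaptors to the RAS-ERK and other cascades, and ERK in turn induces genes that damp the signal. FGF1 and FGF10 are fibroblast growth factors and FGFR1 is the main FGF receptor of mesenchymal cells. PDGFB and PDGFC encode platelet-derived growth factor chains that act on PDGFRA and PDGFRB, HGF is the ligand of MET, and CSF1 is the macrophage colony-stimulating factor that acts on CSF1R. In the cornea, PDGF and FGF are known to drive keratocyte proliferation and migration, and HGF made by stromal cells acts on the epithelium.

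Levels are given as the authors' FPKM values, read counts scaled by length of gene and by library, which allow levels of different genes to be set side by side. Differences are edgeR log2 fold changes with their SE. A gene was counted as a DEG (differentially expressed gene) when its Benjamini–Hochberg adjusted p did not exceed 0.05 and its log2 fold change reached the fold limit of 1 in either direction. The libraries held 14626982 to 31804255 counts. In bulk RNA-seq, fewer cells of a type and less RNA per cell cannot be told apart.

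The levels of FGF1, PDGFB and CSF1 fell and the level of HGF rose in 3DF vs. 2DC, so that 4 of the 10 genes were DEGs, beside 7.56% of the 13493 genes tested. In 2DF vs. 2DC 3 of 10 were DEGs, FGF1 and PDGFB lower and HGF higher, beside 4.96% of all genes. In 3DF vs. 2DF 2 of 10 were DEGs, FGF1 lower and FGF10 higher, beside 3.78% of all genes. By adjusted p alone, 7 of 10 passed in 3DF vs. 2DC (15.4% of all genes), 7 in 2DF vs. 2DC (14.4%) and 2 in 3DF vs. 2DF (6.05%). Over all genes, an unadjusted p under 0.05 was reached by 3970 of 13493 in 3DF vs. 2DC and 2889 of 13195 in 3DF vs. 2DF (edgeR). The ranges of the FPKM values did not overlap for 9 of 10 genes in 3DF vs. 2DC (37.8% of all genes), 9 in 2DF vs. 2DC (35.2%) and 4 in 3DF vs. 2DF (29.3%). These comparisons share libraries and are not independent of each other. In the F test over all 5 conditions, 10 of 10 passed, with adjusted p from 2.7e-07 for PDGFC to 0.0121 for PDGFRB (edgeR), beside 41.8% of 14036 genes.

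FGF1, a ligand of all the FGF receptors, lies at chr3:24575916-24671156 in oryCun2. In 2DC its FPKM was 2.40, 2.32 and 2.99, and in 2DC_L 2.48, 2.01 and 6.53. On the matrix surface (2DF) it was 0.396, 0.589 and 0.266. Embedded cells had 0.0922, 0.102 and 0.0229 in 3DF and 0.105, 0.0125 and 0.106 in 3DF_50. The levels therefore fell into 3 ranges that did not overlap, with the coated dishes on top, the matrix surface between and the embedded cells at the bottom. Only 2 to 10 counts per library stood behind the 3DF values and 1 to 9 behind those of 3DF_50, so that the low end is imprecise. FGF1 was a DEG in 3DF vs. 2DC (log2 fold change -5.10, SE 0.36, adjusted p = 0.000159, edgeR) and in 2DF vs. 2DC (log2 fold change -2.61, SE 0.27, adjusted p = 0.000695, edgeR). Mean FPKM was 35.5 times as high in 2DC as in 3DF and 6.16 times as high in 2DC as in 2DF. Both calls were kept when any library was left out. With the prefix of the library names, which some conditions share, as a block, the call in 2DF vs. 2DC was lost. That in 3DF vs. 2DC was kept. The step from 2DF to 3DF was also called (log2 fold change -2.47, SE 0.53, adjusted p = 0.0221, edgeR), but it was lost without 2DF replicate 1 (adjusted p = 0.0724), without 2DF replicate 2 (0.0924) and without 3DF replicate 3 (0.0677). The prefix block lost it too. Between 3DF and 3DF_50 the counts were too low for FGF1 to enter the test. In 2DC_L replicate 3 stood above the other libraries, and 2DC and 2DC_L did not pass the test (log2 fold change -0.49, adjusted p = 0.919, edgeR).

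FGF10, a stromal ligand that signals to epithelia, lies at chr11:64989932-65080400. It was expressed at a much higher level than FGF1. Its FPKM was 52.4, 56.1 and 54.0 in 2DC, 43.3, 47.0 and 47.7 in 2DC_L and 45.5, 43.1 and 56.0 in 2DF. In 3DF it was 123, 94.3 and 94.9, and in 3DF_50 77.1, 72.5 and 94.4. Every library of embedded cells was above every 2D library. In 3DF the mean was 2.16 times that in 2DF, which made FGF10 a DEG (log2 fold change 1.12, SE 0.16, adjusted p = 0.00361, edgeR), while 2DF vs. 2DC did not pass (log2 fold change -0.16, adjusted p = 0.359, edgeR). The fold was 0.97 on the log2 scale without 3DF replicate 1, the highest library, and then missed the fold limit. This call was also lost with the prefix block. Against 2DC the rise passed the test but not the fold limit (log2 fold change 0.93, SE 0.13, adjusted p = 0.00276, edgeR). At 50k cells/matrix it was 0.59 against 2DC (adjusted p = 0.00272), 0.77 against 2DF (adjusted p = 0.00293) and 0.83 against 2DC_L (adjusted p = 0.000294, edgeR). The 2 matrix densities did not differ past the threshold (3DF vs. 3DF_50 log2 fold change 0.33, adjusted p = 0.278, edgeR). FGF10 thus moved opposite to FGF1 between the matrix surface and the embedded cells.

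**Figure D1:**
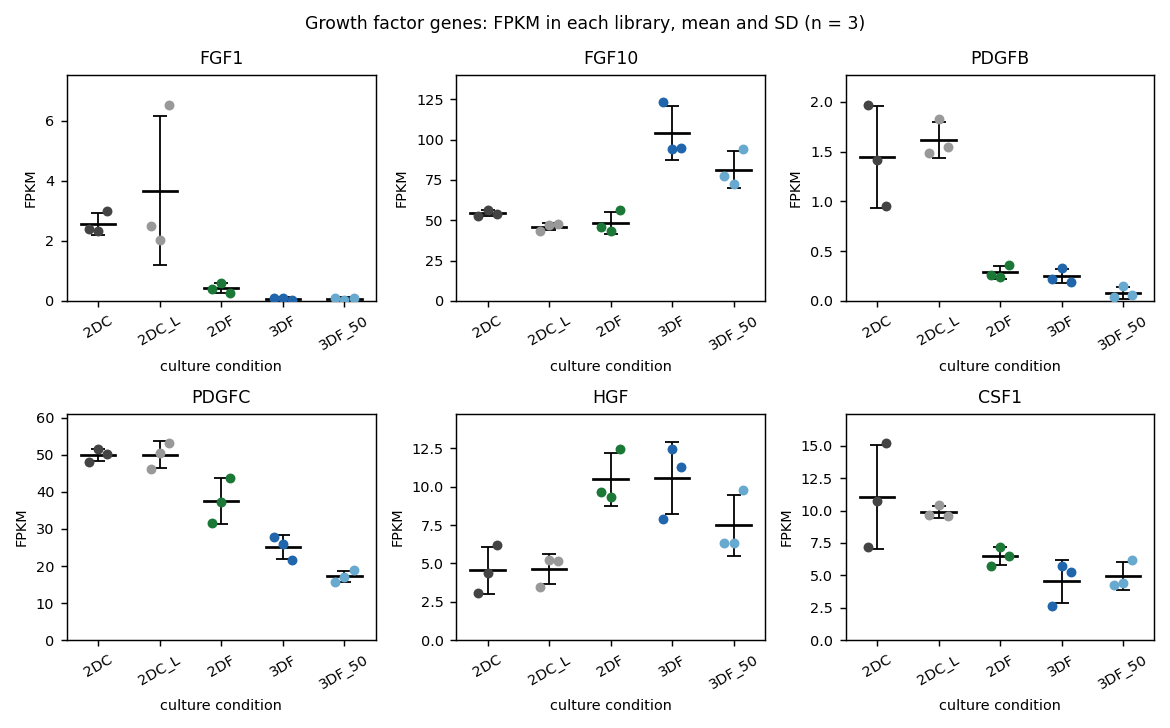
FPKM of the 6 growth factor genes (y axis, linear, from 0) in the 5 culture conditions (x axis), with a point for each library, a bar at the mean and whiskers of 1 SD (n = 3). FGF1 falls from the coated dishes over 2DF to the embedded cells, FGF10 is highest in 3DF and 3DF_50, and PDGFC is lowest in 3DF_50.

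FGFR1, the receptor of this family on fibroblast-like cells, was the most highly expressed of the 10 genes in every condition. It lies on the unplaced scaffold Un0008 at 4965549 to 5016729. Its FPKM was 190, 189 and 175 in 2DC, 181, 198 and 168 in 2DC_L, 284, 344 and 297 in 2DF, 296, 304 and 284 in 3DF and 247, 259 and 275 in 3DF_50. All 9 libraries from fibrillar matrices were above all 6 libraries from coated dishes. The rise was below the fold limit in 2DF vs. 2DC (log2 fold change 0.75, SE 0.11, adjusted p = 0.00271, edgeR) and in 3DF vs. 2DC (log2 fold change 0.67, SE 0.11, adjusted p = 0.00595, edgeR). 3DF and 2DF did not differ past the threshold (log2 fold change -0.06, adjusted p = 0.842, edgeR).

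The other FGF genes were mostly at low levels. Of 13 other secreted FGF genes in the tables, 3 could be tested in 3DF vs. 2DC, and 6 had at most 3 counts in every library. FGF9, a ligand with a role in lung and gonad development, was the only DEG of them in 3DF vs. 2DC and in 2DF vs. 2DC. It had 1.54, 2.32 and 1.04 FPKM in 2DC, 0.150, 0.260 and 0.603 in 2DF and 0, 0.0870 and 0.0650 in 3DF. The 3DF values rest on 0, 3 and 2 counts, so that no fold is given for 3DF vs. 2DC (adjusted p = 0.0018, edgeR), and in 2DF vs. 2DC it fell by 2.26 on the log2 scale (SE 0.52, adjusted p = 0.0217, edgeR). FGF2, a ligand used to expand keratocytes in culture, was at 17.9 ± 2.15 FPKM in 2DC and 22.2 ± 2.27 in 3DF (SD, n = 3), and did not pass in 3DF vs. 2DC (log2 fold change 0.29, adjusted p = 0.245, edgeR). In 2DF it was at 13.5 ± 1.65 FPKM, and 3DF vs. 2DF passed below the fold limit (log2 fold change 0.72, SE 0.18, adjusted p = 0.041, edgeR). FGFR2, whose epithelial form is the main receptor of FGF10, was at 1.85 ± 0.201 FPKM in 2DC and 1.33 ± 0.231 in 3DF. FGF2 and FGFR2 were named after their values were seen. KL, the co-receptor for the hormone FGF23, had 1.56, 1.41 and 1.09 FPKM in 2DC, 0.583, 0.382 and 0.552 in 2DF and 0.766, 0.614 and 0.556 in 3DF. It was a DEG in 3DF vs. 2DC (log2 fold change -1.08, SE 0.22, adjusted p = 0.0134) and in 2DF vs. 2DC (log2 fold change -1.42, SE 0.25, adjusted p = 0.0065, edgeR). FGF13, which is not secreted and binds sodium channels, was the only DEG among the 3 tested intracellular FGF genes in 2DF vs. 2DC and in 3DF vs. 2DF. None of the 3 was a DEG in 3DF vs. 2DC, where FGF11 passed below the fold limit (log2 fold change 0.58, adjusted p = 0.0287, edgeR). FGF13 had 6.71, 5.65 and 7.33 FPKM in 2DF, above the other conditions, and was higher in 2DF vs. 2DC (log2 fold change 1.39, SE 0.13) and lower in 3DF vs. 2DF (log2 fold change -2.15, SE 0.24, edgeR).

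PDGFB encodes the B chain, which binds both PDGF receptors, and lies at chr4:84238980-84254741. Its FPKM was 1.97, 1.42 and 0.952 in 2DC and 1.48, 1.83 and 1.55 in 2DC_L. It was 0.261, 0.239 and 0.363 in 2DF, 0.224, 0.326 and 0.191 in 3DF and 0.0398, 0.151 and 0.0536 in 3DF_50. No library from a fibrillar matrix reached the lowest library from a coated dish. PDGFB was a DEG in 2DF vs. 2DC (log2 fold change -2.33, SE 0.36, adjusted p = 0.00394, edgeR) and in 3DF vs. 2DC (log2 fold change -2.55, SE 0.36, adjusted p = 0.00272, edgeR), where mean FPKM was 5.86 times as high in 2DC. Both calls were kept when any library was left out. With the prefix block the call in 2DF vs. 2DC was lost and that in 3DF vs. 2DC was kept. 2DF and 3DF overlapped and did not differ past the threshold (log2 fold change -0.21, adjusted p = 0.804, edgeR). The lower values of 3DF_50 rest on 2, 8 and 3 counts and did not pass in 3DF vs. 3DF_50 (log2 fold change 1.55, adjusted p = 0.175, edgeR). Where FGF1 had 3 levels, PDGFB had a lower level in all of the matrix conditions.

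PDGFC encodes a chain that acts mainly through PDGFRA after proteolytic release, and lies at chr15:7015705-7226237. It was the most abundant PDGF ligand, with 48.2, 51.5 and 50.4 FPKM in 2DC and 46.3, 50.6 and 53.3 in 2DC_L. It had 31.6, 37.3 and 43.8 FPKM in 2DF, 27.9, 25.9 and 21.7 in 3DF and 15.8, 17.0 and 18.9 in 3DF_50. The ranges of 2DF, 3DF and 3DF_50 followed each other downwards without overlap. In 3DF vs. 2DC the difference lay at the fold limit and was not a DEG (log2 fold change -0.9998, SE 0.12, adjusted p = 0.00127, edgeR), and it became a DEG without 2DC replicate 1, 3DF replicate 1 or 3DF replicate 2, with log2 fold changes of -1.03, -1.07 and -1.03. In 3DF_50 vs. 2DC it was a DEG (log2 fold change -1.53, SE 0.085, edgeR), and also in 3DF_50 vs. 2DF (log2 fold change -1.11, SE 0.12, adjusted p = 0.000213, edgeR). Neighbours in this order differed less surely. 2DF vs. 2DC passed the test at a log2 fold change of -0.41 (adjusted p = 0.0467), but 3DF vs. 2DF (-0.57, adjusted p = 0.065) and 3DF vs. 3DF_50 (0.52, adjusted p = 0.102, edgeR) did not.

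The PDGF receptors were high and changed little. PDGFRA, on the scaffold Un0056 at 203464 to 238277, had 80.2, 84.8 and 84.8 FPKM in 2DC, 78.3, 83.2 and 76.6 in 2DC_L, 109, 114 and 97.3 in 2DF, 92.6, 115 and 107 in 3DF and 82.4, 78.5 and 87.2 in 3DF_50. PDGFRB, at chr3:31893997-31929290, had 72.6, 69.8 and 77.1 FPKM in 2DC, 75.8, 75.8 and 60.6 in 2DC_L, 94.5, 95.2 and 101 in 2DF, 78.4, 90.6 and 94.8 in 3DF and 82.3, 97.7 and 89.5 in 3DF_50. All libraries from fibrillar matrices were above those from coated dishes for PDGFRB, whereas the PDGFRA values of 3DF_50 overlapped those of the coated dishes. In 2DF vs. 2DC both passed the test below the fold limit, PDGFRA with a log2 fold change of 0.36 (adjusted p = 0.0382) and PDGFRB with 0.41 (adjusted p = 0.0157, edgeR). In 3DF vs. 2DC neither passed (0.33, adjusted p = 0.127, and 0.26, adjusted p = 0.205, edgeR). In 3DF_50 vs. 2DC PDGFRA was at -0.01 (adjusted p = 0.943, and 0.34 when scaled by library size only) and PDGFRB at 0.30 (adjusted p = 0.0338, edgeR). The log2 ratio of PDGFRA to PDGFRB within a library did not differ among the 5 conditions past the threshold (56.6% of the sum of squares between conditions, exact permutation test over 1401400 splits, one-sided, p = 0.053, adjusted p = 0.053 over 2 ratios). Without 2DC_L replicate 3 the p of this exact permutation test was 0.0443, and without 2DF replicate 3 it was 0.0226.

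**Figure D2:**
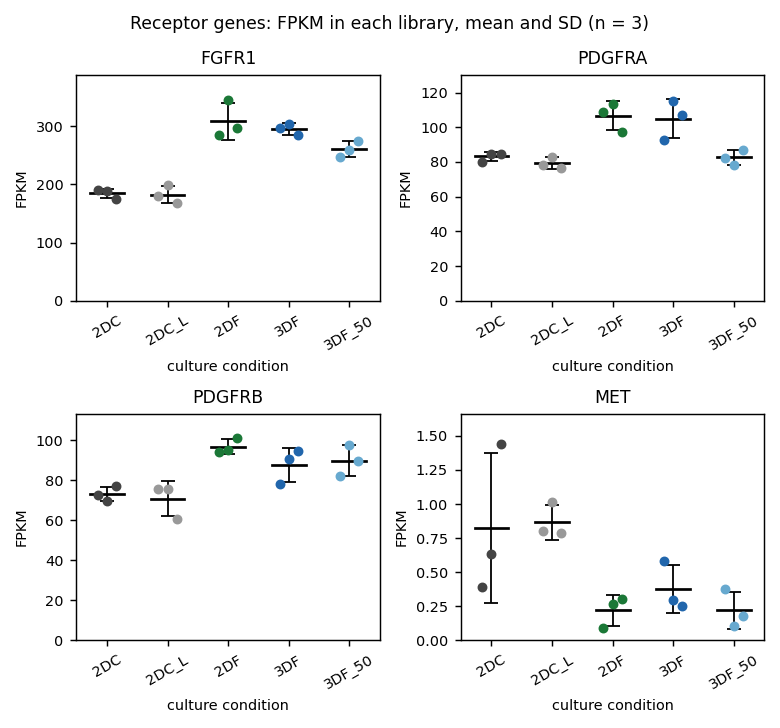
FPKM of the 4 receptor genes (y axis, linear, from 0) in the 5 culture conditions (x axis), with a point for each library, a bar at the mean and whiskers of 1 SD (n = 3). FGFR1 is at least 247 FPKM in every matrix library and at most 198 FPKM in every library from coated dishes, and MET stays at or below 1.44 FPKM.

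Of the other PDGF genes, PDGFRL, a secreted protein like the PDGF receptor without a kinase, was the DEG in 3DF vs. 2DC among 3 tested. It had 252, 188 and 147 FPKM in 2DC, 118, 156 and 175 in 2DF, 95.5, 95.4 and 85.8 in 3DF and 47.4, 28.7 and 47.6 in 3DF_50. It was lower in 3DF vs. 2DC (log2 fold change -1.10, SE 0.19, adjusted p = 0.0064) and higher in 3DF vs. 3DF_50 (log2 fold change 1.13, SE 0.19, adjusted p = 0.0393, edgeR). Like PDGFC, it had its lowest values in 3DF_50.

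HGF, known to be made by keratocytes, lies at chr7:34090195-34160728. Its FPKM was 3.08, 4.38 and 6.17 in 2DC and 3.48, 5.25 and 5.16 in 2DC_L. It was 9.67, 9.31 and 12.5 in 2DF, 7.92, 12.4 and 11.3 in 3DF and 6.36, 6.31 and 9.77 in 3DF_50. Each matrix library was above each library from a coated dish, but 2DC replicate 3 and 3DF_50 replicate 2 nearly met. HGF was a DEG in 2DF vs. 2DC (log2 fold change 1.22, SE 0.23, adjusted p = 0.00967, edgeR) and in 3DF vs. 2DC (log2 fold change 1.21, SE 0.27, adjusted p = 0.0183, edgeR), 2.31 and 2.32 times the mean FPKM of 2DC. The call in 3DF vs. 2DC was lost without 2DC replicate 1 (log2 fold change 0.99), and in adjusted p without 2DC replicate 2 (0.0766), 3DF replicate 2 (0.0526) or 3DF replicate 3 (0.0602). It was also lost with the prefix of the library names, which some libraries of different conditions share, as a block (log2 fold change 0.76, adjusted p = 0.0578, edgeR). The call in 2DF vs. 2DC was lost without 2DC replicate 1 (log2 fold change 0.99) and with the prefix block. In 3DF_50 vs. 2DC HGF did not pass (log2 fold change 0.73, adjusted p = 0.053, edgeR). Against 2DC_L, HGF was a DEG in 3DF (log2 fold change 1.19, SE 0.22, adjusted p = 0.00419, edgeR) and in 2DF (log2 fold change 1.19, SE 0.18, adjusted p = 0.00131, edgeR). The prefix block lost the call in 3DF vs. 2DC_L (log2 fold change 0.78, adjusted p = 0.0529, edgeR) and also that in 2DF vs. 2DC_L. 3DF and 2DF did not differ past the threshold (log2 fold change 0.01, adjusted p = 0.977, edgeR).

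MET, the HGF receptor, lies at chr7:28471564-28566807. It was at or below 1.44 FPKM in every library. Its FPKM was 0.390, 0.632 and 1.44 in 2DC, 0.799, 1.01 and 0.784 in 2DC_L, 0.0872, 0.268 and 0.299 in 2DF, 0.579, 0.297 and 0.250 in 3DF and 0.372, 0.107 and 0.179 in 3DF_50. The values of 2DC spread widely and met those of 3DF, while 2DC_L lay above all matrix libraries. MET was not a DEG in 3DF vs. 2DC (log2 fold change -1.12, adjusted p = 0.181, edgeR) or in 2DF vs. 2DC (log2 fold change -1.90, adjusted p = 0.0531, edgeR). Against 2DC_L it was a DEG in 2DF (log2 fold change -1.98, SE 0.37, adjusted p = 0.00436, edgeR), in 3DF (log2 fold change -1.20, SE 0.32, adjusted p = 0.0248, edgeR) and in 3DF_50 (log2 fold change -1.99, SE 0.37, adjusted p = 0.00196, edgeR). When single libraries were left out, the call in 3DF vs. 2DC_L was kept only without 3DF replicate 1. The adjusted p was 0.0567 to 0.099 without any other library (edgeR). That call was also lost with all 5 conditions in the fit. The call in 2DF vs. 2DC_L was lost with the prefix block. 2DC_L was not digested, so that in these comparisons the matrix and the digestion cannot be told apart. In 3DF_50 vs. 2DC, where both sides were digested, MET was a DEG too (log2 fold change -1.90, SE 0.56, adjusted p = 0.0261, edgeR), but not without 2DC replicate 3 (adjusted p = 0.0715), 3DF_50 replicate 2 (0.0926) or 3DF_50 replicate 3 (0.0904), or with the prefix block (0.0574). 2DC vs. 2DC_L was at a log2 fold change of -0.09 (adjusted p = 0.993, edgeR).

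The log2 ratio of HGF to MET, was formed within each library from FPKM + 0.1, a constant as large as the lowest MET values. It was 2.70, 2.61 and 2.02 in 2DC and 1.99, 2.27 and 2.57 in 2DC_L. It was 5.71, 4.68 and 4.98 in 2DF, 3.56, 4.98 and 5.03 in 3DF and 3.77, 4.95 and 5.15 in 3DF_50. All matrix libraries were above all libraries from coated dishes. The conditions held 85.9% of the sum of squares (exact permutation test over 1401400 splits, one-sided, p = 0.00124, adjusted p = 0.00248 over 2 ratios). Of the 6 tested genes around HGF (its activating proteases, their inhibitors and the MET relative MST1R), 0 were DEGs in 3DF vs. 2DC with edgeR, where 2 had an unadjusted p under 0.05 (3970 of 13493 over all genes) and DESeq2 also called 0.

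**Figure D3:**
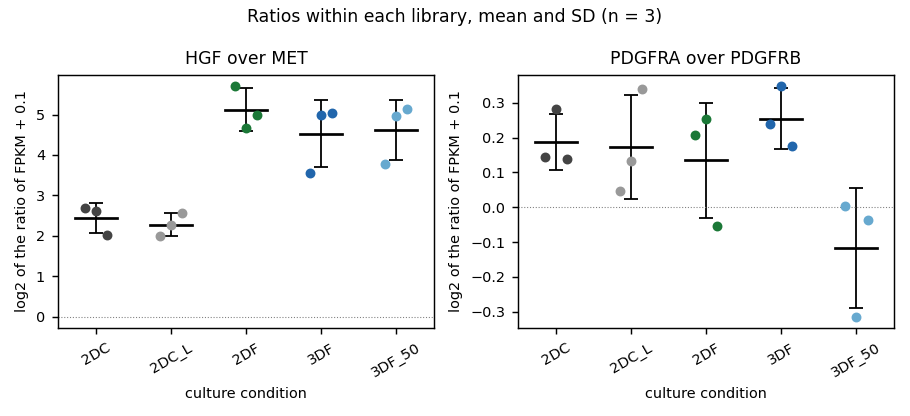
Log2 ratio of HGF to MET and of PDGFRA to PDGFRB (y axes, from FPKM + 0.1) in the 5 culture conditions (x axis), with a point for each library, a bar at the mean and whiskers of 1 SD (n = 3). The HGF to MET ratio is at most 2.70 in the coated dishes and at least 3.56 in the matrices.

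CSF1, which supports macrophages, lies at chr13:54246013-54264654. Its FPKM was 7.21, 10.7 and 15.3 in 2DC, 9.64, 10.4 and 9.61 in 2DC_L and 5.75, 7.19 and 6.53 in 2DF. It was 2.64, 5.72 and 5.23 in 3DF and 4.29, 4.38 and 6.19 in 3DF_50. The embedded cells lay below both kinds of coated dish, and 2DF lay between them with a small overlap with 3DF_50. CSF1 was a DEG in 3DF vs. 2DC (log2 fold change -1.29, SE 0.34, adjusted p = 0.0344, edgeR), with a mean FPKM 2.44 times as high in 2DC. That call was lost without 2DC replicate 2 (adjusted p = 0.0928), 2DC replicate 3 (0.117) or 3DF replicate 3 (0.0717), and when scaled by library size only (0.0524). It was a DEG in 3DF vs. 2DC_L too (log2 fold change -1.13, SE 0.25, adjusted p = 0.011, edgeR), but missed the fold limit without 3DF replicate 1 (log2 fold change -0.85) and with library size only (-0.95). In 2DF vs. 2DC it did not pass (log2 fold change -0.76, adjusted p = 0.0605, edgeR). CSF1R, its receptor, was at 0.224 ± 0.172 FPKM in 2DC and 0.240 ± 0.034 in 3DF (SD, n = 3), and IL34, the other ligand of CSF1R, passed below the fold limit in 3DF vs. 2DC (log2 fold change -0.93, SE 0.17, adjusted p = 0.00853, edgeR). Both were named after their values were seen. CSF1R and IL34 belong to a list of 6 tested receptors of this class and their ligands, beside the PDGF receptors and CSF1. Of these 6, 0 were DEGs in 3DF vs. 2DC with edgeR or DESeq2, and only IL34 had an unadjusted p under 0.05.

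The spread within 2DC was wide for CSF1, MET and HGF, each of which was highest in replicate 3. The summed FPKM of 4 cycling cell markers also spread in these libraries, at 1.86, 10.1 and 27.4, and was 0.245 to 0.656 in 3DF and 0.359 to 0.504 in 2DF. In 2DC_L the sums were 8.70, 10.8 and 21.2, while CSF1 varied only from 9.61 to 10.4 FPKM. The part of cycling cells in these levels was not tested.

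A pair of comparisons without a common library set embedded cells against coated dishes. In 3DF_50 vs. 2DC_L 4 of 10 genes were DEGs, FGF1, PDGFB, PDGFC and MET, all lower, beside 13.5% of all genes tested. This comparison differs from 3DF vs. 2DC also in cell number and in the digestion of the dish. FGF1 was at -5.57 (SE 0.63) in 3DF_50 vs. 2DC_L and at -5.10 (SE 0.36) in 3DF vs. 2DC, and PDGFB was at -4.27 (SE 0.40) and -2.55 (SE 0.36). HGF rose below the fold limit (log2 fold change 0.70, adjusted p = 0.0216), and CSF1 fell to just inside the limit (log2 fold change -0.995, adjusted p = 0.00037, edgeR). FGF1 and PDGFB were DEGs in each of the 6 comparisons of a matrix condition with a coated dish. With the prefix block their calls in 2DF vs. 2DC and in 2DF vs. 2DC_L were lost.

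In 3DF_50 vs. 2DC 5 of 10 were DEGs (11.6% of all genes), with FGF1, PDGFB, PDGFC, CSF1 and MET lower. There the CSF1 call was lost without 2DC replicate 3 (log2 fold change -0.85) and with library size only (-0.81). In 3DF vs. 2DC_L 6 of 10 were DEGs (10.2%), with FGF10 and HGF higher and FGF1, PDGFB, CSF1 and MET lower. In 2DF vs. 2DC_L 4 of 10 were DEGs (7.39%), with HGF higher and FGF1, PDGFB and MET lower. In 3DF_50 vs. 2DF 2 of 10 were DEGs (4.45%), FGF1 and PDGFC, both lower. There the FGF1 call was lost without 2DF replicate 2 (adjusted p = 0.0763) or 3DF_50 replicate 2 (adjusted p = 0.0539, edgeR), and the PDGFC fold missed the limit without 2DF replicate 3 (log2 fold change -0.99). These share libraries with the comparisons above.

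Neither the cell number nor the digestion gave a DEG among these genes. In 3DF vs. 3DF_50 0 of 9 tested were DEGs with edgeR and 0 with DESeq2 (0.452% of all genes with edgeR), and PDGFB, PDGFC and PDGFRA had an unadjusted p under 0.05. Over all genes, 2660 of 13285 had one. The ranges of 4 of the 9 did not overlap, beside 29.4% of all genes. In 2DC vs. 2DC_L 0 of 10 were DEGs with either tool (0.265% of all genes with edgeR), and FGF10 had an unadjusted p of 0.0113. An unadjusted p under 0.05 was reached there by 780 of 13608 genes. FGF10 was also the only one of the 10 without overlap, beside 12.8% of all genes. With 3 libraries per condition, a p above the threshold does not show that these levels were equal.

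**Figure D4:**
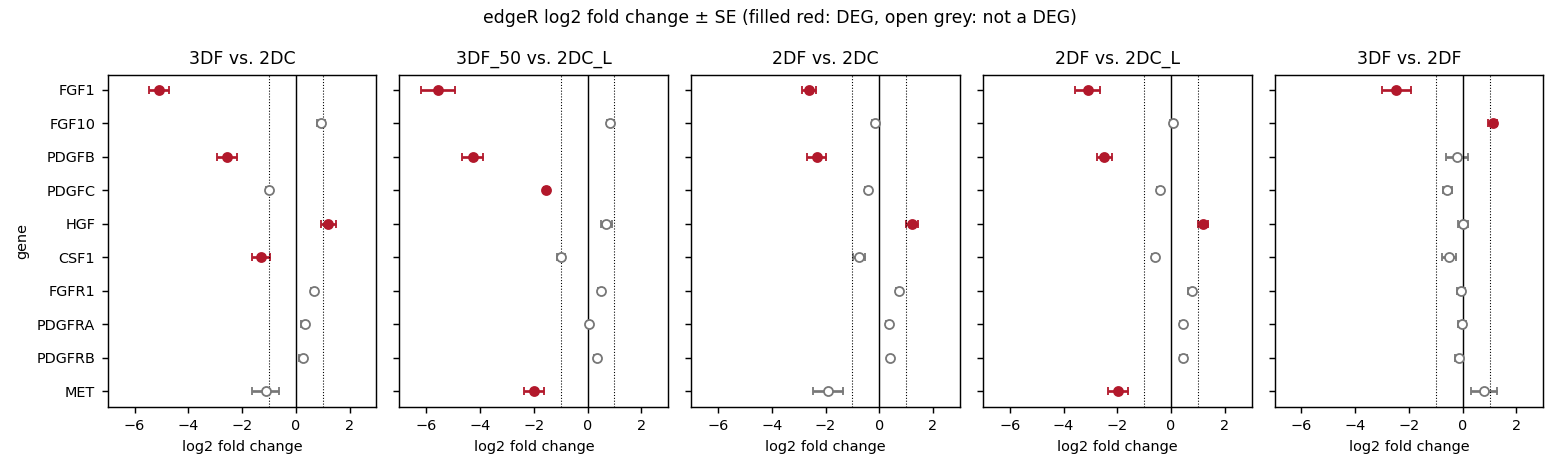
Log2 fold change (x axis, edgeR) with its SE as whiskers for each of the 10 genes (y axis) in 5 comparisons, filled red for DEGs and open grey for the others, with dotted lines at the fold limits of -1 and 1. FGF1 and PDGFB lie left of -1 in the 4 comparisons of a matrix with a coated dish, and in 3DF vs. 2DF FGF1 and FGF10 are the DEGs, on opposite sides.

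The labels do not say what the prefix of a library name stands for. For the pair of 3DF replicate 1 and 2DC replicate 3, which share it, the log2 differences were -4.72 for FGF1, -1.93 for PDGFB, -2.51 for CSF1 and 0.37 for HGF. The HGF difference within this pair was smaller than in the fit over all 6 libraries (1.21). In the pairs of 3DF_50 and 2DC_L that share a prefix, the differences were -4.01 and -5.67 for FGF1, -4.68 and -4.18 for PDGFB, -1.67 and -1.48 for PDGFC and -1.40 and -2.04 for MET. No 2DF library shares a prefix with 2DC, 2DC_L or 3DF, so that there the prefix and the condition cannot be told apart.

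Genes that FGF, PDGF and HGF receptors induce through ERK were described as a list of 19 feedback inhibitors and ETS targets, all of which were tested. In 3DF vs. 2DC 4 were higher and 0 lower with edgeR and 4 in all with DESeq2, where 9 had an unadjusted p under 0.05 (3970 of 13493 over all genes), with a median log2 fold change of 0.78 beside 0.01 over all genes tested, of which 3.24% were higher DEGs. The 4 were DUSP6, a phosphatase of ERK (log2 fold change 2.79, SE 0.44), ETV5, an ETS transcription factor (1.67, SE 0.34), SPRY4, a Sprouty inhibitor (1.32, SE 0.19), and ERRFI1, an inhibitor of EGFR (1.31, SE 0.25). In 3DF vs. 2DF 4 were higher and 0 lower, where 2.09% of all genes were higher DEGs, namely DUSP6 (1.74, SE 0.23), ETV5 (1.61, SE 0.18), SPRY1, another Sprouty inhibitor (1.38, SE 0.18), and SPRY4 (1.22, SE 0.17). In 2DF vs. 2DC only ERRFI1 was called (1.41, SE 0.16), while DESeq2 called 2.

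In each library, DUSP6 had 0.924, 0.890 and 2.78 FPKM in 2DC, 2.99, 2.62 and 3.92 in 2DF, 8.13, 13.8 and 9.72 in 3DF and 6.54, 8.15 and 9.37 in 3DF_50. SPRY4 had 11.4, 15.4 and 19.5 FPKM in 2DC, 18.6, 18.8 and 12.4 in 2DF, 36.5, 39.0 and 40.5 in 3DF and 46.4, 51.0 and 40.3 in 3DF_50. ETV5 had 1.75, 2.85 and 4.83 FPKM in 2DC, 2.98, 3.43 and 3.43 in 2DF, 8.18, 9.41 and 12.4 in 3DF and 10.3, 11.4 and 10.7 in 3DF_50. For these 3 genes every embedded library was above every 2D library, as for FGF10. ERRFI1 instead had its higher values in 2DF (23.9, 24.7 and 29.8 FPKM) and 3DF (26.9, 30.7 and 16.4), with 12.2, 15.3 and 10.9 in 3DF_50.

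Genes of this list also differed with digestion before lysis. In 2DC vs. 2DC_L EGR1 and DUSP5, immediate targets of ERK, were DEGs of the 19, beside 0.265% of all genes, and 9 had an unadjusted p under 0.05 (780 of 13608 over all genes). The median log2 fold change of the list was 0.47 there, beside -0.0048 over all genes. EGR1 had 633, 664 and 573 FPKM in 2DC and 2.42, 2.17 and 3.17 in 2DC_L (log2 fold change 7.93, SE 0.18, edgeR). DUSP5 had 2.38, 4.05 and 3.92 FPKM in 2DC and 0.429, 0.439 and 0.482 in 2DC_L (log2 fold change 2.94, SE 0.26, edgeR). DUSP6, ETV5 and SPRY4 were not DEGs there, with log2 fold changes of 1.22 (adjusted p = 0.854), 0.25 (adjusted p = 0.966) and 1.05 (adjusted p = 0.436, edgeR). In a comparison of the matrix conditions with 2DC_L, digestion and matrix cannot be told apart for this list.

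**Figure D5:**
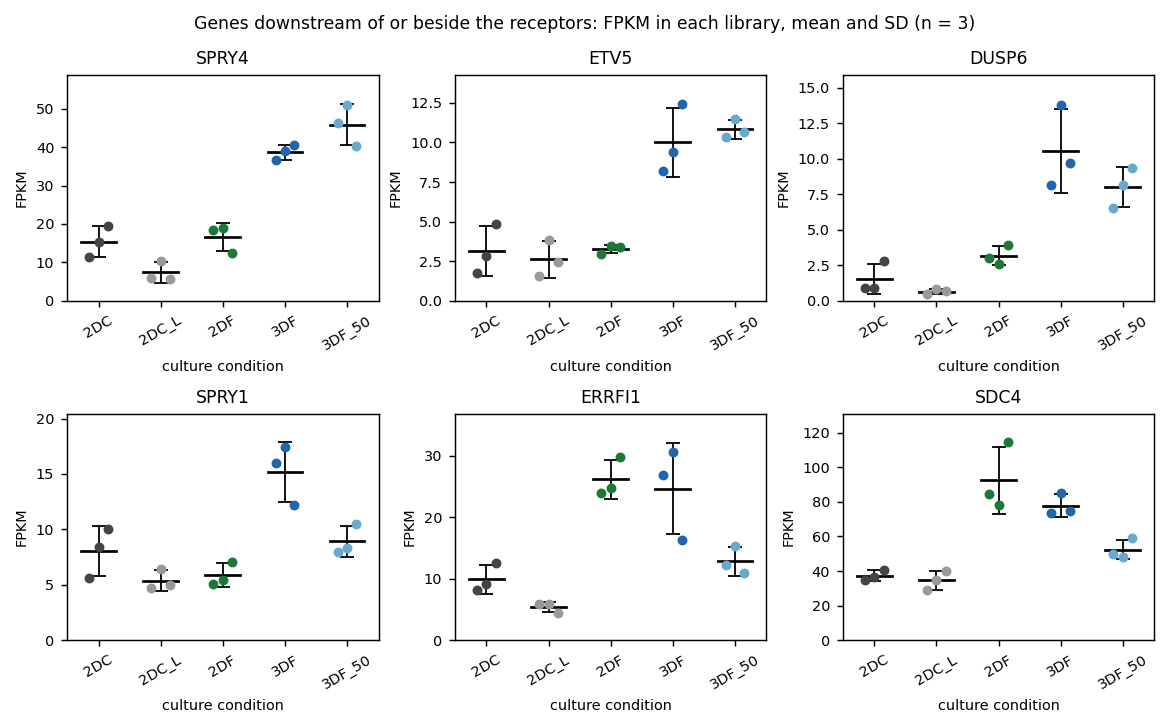
FPKM (y axis, linear, from 0) of SPRY4, ETV5, DUSP6, SPRY1, ERRFI1 and the heparan sulfate proteoglycan SDC4 in the 5 culture conditions (x axis), with a point for each library, a bar at the mean and whiskers of 1 SD (n = 3). SPRY4, ETV5 and DUSP6 are higher in 3DF and 3DF_50 than in any 2D library, whereas ERRFI1 and SDC4 are also high in 2DF.

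Heparan sulfate proteoglycans hold FGFs, PDGFs and HGF at the cell surface and in the matrix. Of 12 tested in 3DF vs. 2DC, 1 was higher and 3 were lower, beside 7.56% of all genes called, and of 11 in 2DF vs. 2DC also 1 was higher and 3 were lower, beside 4.96%, with SDC4 on the one side and SDC1, HSPG2 and GPC6 on the other in both comparisons. SDC4, a syndecan at focal adhesions, had 34.6, 36.7 and 40.6 FPKM in 2DC, 84.4, 78.2 and 115 in 2DF and 73.5, 85.3 and 74.8 in 3DF. SDC1, the syndecan of epithelia, was lower, with 60.7, 62.9 and 57.5 FPKM in 2DC, 35.5, 29.9 and 24.0 in 2DF and 11.7, 18.0 and 18.5 in 3DF. In 3DF vs. 2DC the log2 fold change was 1.05 (SE 0.12) for SDC4 and -1.92 (SE 0.18) for SDC1, beside -1.44 (SE 0.22) for HSPG2, the basement membrane proteoglycan perlecan, and -2.20 (SE 0.54) for the glypican GPC6, which stayed under 1 FPKM. In 3DF vs. 2DF 0 of 11 were DEGs with edgeR or DESeq2, and 3 had an unadjusted p under 0.05 (2889 of 13195 over all genes). Of 25 tested adaptors and members of the RAS-ERK cascade, 0 were DEGs in 3DF vs. 2DC with edgeR or DESeq2, while 11 had an unadjusted p under 0.05 (3970 of 13493 over all genes).

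Markers of the cell type and of other cells were summed in each library. The 6 keratocyte markers summed to between 20042 and 43020 FPKM, and 0 of them were DEGs in 3DF vs. 2DC with edgeR or DESeq2, where 1 had an unadjusted p under 0.05. The 8 corneal epithelium markers summed to 0.095 to 1.06 FPKM in 2DC, 0.116 to 0.874 in 2DC_L, 0.731 to 6.30 in 2DF, 8.02 to 13.2 in 3DF and 0.102 to 6.38 in 3DF_50. The 5 that were tested in 3DF vs. 2DC were higher DEGs, beside 3.24% of all genes. In 2DC vs. 2DC_L only 1 had enough counts for the test. A marker can enter the test through its 3DF counts alone, so that this count of higher markers is no separate evidence. KRT12, the keratin of corneal epithelium, was at 0 in every library of 2DC and 2DC_L and at 2.47, 4.40 and 3.72 FPKM in 3DF. In 3DF_50 replicates 1 and 2, where the epithelial sum was 0.102 and 0.138 FPKM, FGF10 was at 77.1 and 72.5 FPKM and FGF1 at 0.105 and 0.0125 FPKM. HGF was at 6.36 and 6.31 FPKM in these libraries. In 3DF_50 replicate 3, where the sum was 6.38 FPKM, FGF10 was at 94.4, FGF1 at 0.106 and HGF at 9.77 FPKM. The 7 macrophage and leukocyte markers summed to between 2.26 and 7.86 FPKM, with CD163 at 0 in every library. The sum was 2.57 to 5.38 FPKM in 2DC, 3.66 to 7.86 in 2DF and 2.82 to 3.12 in 3DF. Of 2 tested in 3DF vs. 2DF, CD68 was a DEG and lower, beside 3.78% of all genes. In 3DF vs. 2DC 0 of 2 were DEGs. The 5 vascular endothelium markers summed to 117 to 119 FPKM in 3DF and 32.9 to 62.5 in 2DC, nearly all of it KDR, a receptor of VEGF. The 3 myofibroblast markers summed to 0.715 to 1.07 FPKM in 3DF and 4.94 to 7.48 in 2DC. The part of other cell types in the levels of the growth factor genes was not tested.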

How the data were processed

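Bulk RNA-seq of rabbit corneal keratocytes was analysed in 15 libraries, 3 for each of 5 conditions. The counts deposited by the authors are whole reads per gene, made by alignment to oryCun2 with HISAT2 and counting with featureCounts. The deposited FPKM values are the authors' own. They are not exactly those counts divided by gene length and total counts, but differ from that by a further factor for each library. The FPKM levels and ranges given here include that factor. Conditions were read from the library titles. Each pair of conditions was tested with the quasi-likelihood test of edgeR 4.0.16 in R 4.3.3, which is two-sided, after TMM scaling and removal of low genes by filterByExpr (minimum count 10), with Benjamini–Hochberg adjustment over all genes tested, and the SE is the log2 fold change divided by the square root of F. Fits were tested on simulated data. Ratios used log2(FPKM + 0.1). DESeq2 1.42.0, its size factors, library size only, no filter, a fit with all 5 conditions, a block for the replicate number or for the library name prefix and leaving out each library were the alternatives. Counts per library limit the precision of FGF1, PDGFB and MET, and errors cover the spread between experiments.

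The genes and lists were chosen with earlier results of these data known. The genes named are the 10 chosen, the members of the lists called in any pair of 2DC, 2DF and 3DF, in 3DF vs. 3DF_50 or in 2DC vs. 2DC_L (up to 4 per list and comparison), and, for each growth factor, the 3 genes with the most similar log2 CPM over the libraries among genes with a symbol and a mean of at least 1 FPKM. Symbols are those of the tables. No sequence is given, and promoters and proteins are not analysed here. The labels do not say that replicate numbers pair the libraries, and the main tests were unpaired. In 2DC and 2DC_L, however, the libraries of replicate 1 share a name prefix, as do those of replicate 2. The deviations of same-numbered libraries of 2DC and 2DC_L correlated at 0.313, 0.0769 and 0.117. A gene selected by the rule for named genes is not reported here.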

Additional observations from a re-analysis of the deposited data

How the results depend on the processing

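The 10 genes were refitted over the 10 comparisons, except FGF1 in 3DF vs. 3DF_50, which was not tested. DESeq2 left 97 of the fold changes on the same side of the thresholds, DESeq2's size factors 99 and no filter 96. All 5 conditions in the fit left 95, library size only 86 and the prefix block 76. With the prefix block 9 turned in sign, 13 lost the call and 1 gained it. Leaving out single libraries kept 523 of the refits, while 33 turned in sign, 25 lost the call and 11 gained it. Library size only moved the median of all genes by 0.19 in 3DF vs. 2DC, 0.11 in 2DF vs. 2DC and 0.37 in 3DF_50 vs. 2DC on the log2 scale. The replicate block, with replicate numbers not said to pair the libraries (mean correlation of deviations -0.0780 to 0.169), kept 93 and gave 1 of 10 DEGs in 3DF_50 vs. 2DF (main value 2). No 2DF library shares a name prefix with 2DC, 2DC_L or 3DF. With the prefix as a block 0 of 10 were DEGs in 2DF vs. 2DC, 3DF vs. 2DF and 2DF vs. 2DC_L, and 1 in 3DF_50 vs. 2DF. Library size only also gave 1 there. Over the refits without 1 library, the counts were 2 to 5 in 3DF vs. 2DC (2 without 2DC replicate 2 or 3DF replicate 3), 1 to 2 in 3DF vs. 2DF (1 without 3DF replicate 1 or 3, or 2DF replicate 1 or 2) and 1 to 2 in 3DF_50 vs. 2DF (1 without 2DF replicate 2 or 3, or 3DF_50 replicate 2). The conditions held 42.3% to 66.3% of the sum of squares of the PDGFRA to PDGFRB log2 ratio. The cause of these changes was not tested.

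Signs turned only for log2 fold changes that were not DEGs. With the prefix as a block these were FGF10 in 2DF vs. 2DC (0.0349), PDGFB (2.04), HGF (-0.39), FGFR1 (0.11) and PDGFRB (0.0121) in 3DF vs. 2DF, PDGFB (0.00901), PDGFC (0.0107) and HGF (0.0237) in 2DC vs. 2DC_L and PDGFRB in 3DF_50 vs. 2DF (0.0309). With library size only they were PDGFRA in 3DF vs. 2DF (0.0338) and 3DF_50 vs. 2DC (0.34), FGFR1 in 3DF vs. 3DF_50 (-0.00758), PDGFC in 2DC vs. 2DC_L (0.00349) and PDGFRB in 3DF_50 vs. 2DF (0.14). PDGFC in 2DC vs. 2DC_L was also turned by all 5 conditions (0.000386) and by the replicate block (0.000626), and MET in 3DF_50 vs. 2DF by the replicate block (-0.0334). Without single libraries the ranges across 0 were, in 3DF vs. 2DF, HGF -0.13 to 0.18, FGFR1 -0.12 to 0.0271 and PDGFRA -0.10 to 0.0634, and in 3DF vs. 3DF_50, CSF1 -0.36 to 0.12 and PDGFRB -0.12 to 0.0226. In 2DC vs. 2DC_L they were FGF1 -0.79 to 0.19, PDGFB -0.45 to 0.0709, PDGFC -0.0525 to 0.0412, HGF -0.31 to 0.19, CSF1 -0.15 to 0.39, FGFR1 -0.0418 to 0.0818, PDGFRB -0.0564 to 0.10 and MET -0.78 to 0.25. They were PDGFRA -0.0497 to 0.0249 in 3DF_50 vs. 2DC, FGF10 -0.0461 to 0.15 in 2DF vs. 2DC_L and MET -0.58 to 0.35 in 3DF_50 vs. 2DF. MET became a DEG in 2DF vs. 2DC with DESeq2, no filter, all 5 conditions, the replicate block or without 2DC replicate 1.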

Other observations

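For each growth factor, the genes with the most similar pattern were found by Pearson's r of log2 CPM over the 15 libraries, among 9687 genes. The libraries share their conditions and depth, so that r is a description and carries no test. Among the genes most like FGF1 were RAB3D (r = 0.980) and CSRP2 (0.971), and those most like PDGFB were MMP16 (0.968), PIGS (0.964) and PDXDC1 (0.963). The genes most like PDGFC were RHOBTB3 (0.984), CALU (0.984) and PMP22 (0.980). For FGF10, which was higher in the embedded cells, they were ADD3 (0.977), B3GNT2 (0.965) and NR3C1, the glucocorticoid receptor (0.961). For HGF they were GRIN3A (0.942), SDC4 (0.929) and SLC7A7 (0.901), so that SDC4, the proteoglycan that rose in 2DF and 3DF, was among the closest of all genes searched. For CSF1 they were ASF1B, a histone chaperone of dividing cells (0.951), NUDT2 (0.934) and TMEM109 (0.934).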
